A study of Mus musculus with 10 samples.

Results

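The small heat shock proteins examined here in the mouse kidney are encoded by 5 genes, Cryab, Hspb1, Hspb6, Hspb8 and Hspb11, of 43629 genes in the count table. Cryab was chosen by its p-value, the smallest among the genes that were higher with rilmenidine, so its own difference between the groups is described without a test. The 4 others carry the family's name, were chosen with earlier results of these data known, and were compared by tests. Hspb2, Hspb3, Hspb7 and Hspb9, which carry that name too, had few or no counts and were not among the members. Cryab had 1.92 times the mean level of the control kidneys in the rilmenidine kidneys, Hspb11 had 1.66 times, and Hspb1, Hspb6 and Hspb8 had group ranges that overlapped. Hspb11, Hspb1 and Hspb6 did not pass an adjusted p-value of 0.05, and Hspb8 had too few counts for the same test.

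Small heat shock proteins are chaperones that work without ATP. They assemble into large, changing oligomers through a shared alpha-crystallin domain, bind proteins that begin to unfold and hold them soluble until ATP-driven chaperones of the Hsp70 class refold them. Their genes are read by the heat shock factor HSF1 in many tissues, and Cryab, which encodes alpha-B-crystallin, is known as a major protein of the lens, heart and skeletal muscle and is abundant in the medulla of the kidney, where cells live in concentrated salt and urea. Hspb1 binds and protects actin filaments, Hspb6 is best known from smooth and cardiac muscle, and Hspb8 works with the co-chaperone Bag3 in the clearance of misfolded proteins. Hspb11 is a member by name more than by kind, because its product is the intraflagellar transport protein IFT25, which pairs with Ift27 in the particles that carry cargo along cilia.

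The kidneys came from male UM-HET3 mice, a genetically heterogeneous stock in which each animal differs from the next. Control mice (CON, n = 6) stayed on Purina 5LG6 diet and rilmenidine mice (RIL, n = 4) received the same diet with 10 ppm of rilmenidine, a drug against high blood pressure, for 1 month from 3 months of age, and all were 4 months old at collection. The question was whether the drug changes the relatives of Cryab together with it. The methods speak of 8 control mice and 6 control libraries were analysed here, and the extraction text of the labels speaks of liver.

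The libraries held 863605 to 2559118 counts in control kidneys and 1813465 to 3232063 in rilmenidine kidneys. Proximal tubule markers summed to between 7538 and 9847 normalized CPM (a count divided by the scaled size of its library, so that libraries can be compared) and liver markers to between 2.24 and 24.0, so the tissue matched its kidney label. Malat1, a long non-coding RNA of the nucleus, was at 1182 to 2100 normalized CPM in controls 1, 3, 4 and 5, at 398 and 284 in controls 2 and 6, and at 306 to 393 in the 4 rilmenidine kidneys.

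The coding sequences show how far the relatives resemble Cryab, and therefore whether their reads could be confused. Cryab (ENSMUSG00000032060) lies on chromosome 9 of GRCm38, from 50751325 to 50756636 on the plus strand. Its transcripts have up to 4 exons and up to 1117 bases. Its coding sequence has 525 bases without the stop codon, and bases 295 to 384 lie in the part that encodes the alpha-crystallin domain. This stretch of 90 bases and its best match in each relative are given here, from GENCODE M21 transcripts, 5′ to 3′, with capitals in the relatives for each base that is identical to Cryab at the same place. For Hspb1 the stretch is at bases 367 to 456, for Hspb6 at 292 to 381, for Hspb8 at 358 to 447 and for Hspb11 at 43 to 132, each of them the best match of that length without gaps.
Cryab: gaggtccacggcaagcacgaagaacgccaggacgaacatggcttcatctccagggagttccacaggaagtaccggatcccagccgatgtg
Hspb1: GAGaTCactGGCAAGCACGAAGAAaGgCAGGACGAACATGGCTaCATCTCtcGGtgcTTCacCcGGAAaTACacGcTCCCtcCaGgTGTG
Hspb6: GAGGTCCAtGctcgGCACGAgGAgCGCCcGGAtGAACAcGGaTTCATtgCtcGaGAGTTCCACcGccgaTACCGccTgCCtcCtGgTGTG
Hspb8: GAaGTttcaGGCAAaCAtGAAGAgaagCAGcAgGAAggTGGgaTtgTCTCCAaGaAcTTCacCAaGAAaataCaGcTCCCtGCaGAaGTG
Hspb11: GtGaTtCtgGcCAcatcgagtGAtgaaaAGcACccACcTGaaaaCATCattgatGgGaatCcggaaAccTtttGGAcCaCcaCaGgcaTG

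Identity to Cryab over this stretch was 74.4% for Hspb1, 68.9% for Hspb6 and 62.2% for Hspb8, and 38.9% for Hspb11, whose best match has no more than scattered bases in common. The stretch was picked for the most matches to Hspb1, Hspb6 and Hspb8 together, with Hspb11 left out of the choice. The identities of those genes, and their distance from that of Hspb11, were raised by that choice. The longest run of identical bases between the transcripts of any pair of the 5 genes was 10 to 16 bases, the longest of them between Cryab and Hspb1. The relatives are therefore distinct in sequence at the scale of a sequencing read. Cryab does overlap another gene of the family by position: Hspb2 lies head to head with it on the minus strand and shares 1030 bases of its span. Hspb2 had 3 counts in all 10 libraries together, so reads listed under it were few. Reads of it that were listed under Cryab cannot be told apart where the counting did not use strand. That setting is not given in the sources used here. On its own strand Hspb2 ends at base 50751078, outside the span of Cryab, which starts at 50751325. How many reads from the 3′ end of Hspb2 reach the shared bases was not tested.

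The other 4 genes lie on 3 chromosomes of GRCm38. Hspb1 (ENSMUSG00000004951) is on chromosome 5 from 135887919 to 135889563, plus strand, and Hspb8 (ENSMUSG00000041548) on the same chromosome from 116408491 to 116422864, minus strand. Hspb6 (ENSMUSG00000036854) is on chromosome 7 from 30552178 to 30555443, plus strand, where it overlaps Proser3 and Lin37 on the other strand, and Hspb11 (ENSMUSG00000063172) is on chromosome 4 from 107253593 to 107279938, plus strand, where it overlaps the pseudogene Gm12850. Counts of Hspb6 and Hspb11 are uncertain to that extent.

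HSF1 binds DNA at repeats of the unit GAA and its complement. Pairs of inverted units (GAANNTTC, or TTCNNGAA, where N is any base, either strand reading the same) were looked for in RefSeq promoter windows of 300 bases on GRCm38.p6, from 250 before to 50 after the start site, and 15.1% of all 32851 windows held at least 1. Windows were found for 4 of the 5 symbols. Hspb1, a textbook target of HSF1, had 2 matches, GAAGTTTC at 117 and GAACCTTC at 97 bases before the start site. The 250 bases before its start, chr5:135887669-135887918 on the plus strand, are shown because this is the densest of the members' windows, with the matches in capitals.
Hspb1 promoter: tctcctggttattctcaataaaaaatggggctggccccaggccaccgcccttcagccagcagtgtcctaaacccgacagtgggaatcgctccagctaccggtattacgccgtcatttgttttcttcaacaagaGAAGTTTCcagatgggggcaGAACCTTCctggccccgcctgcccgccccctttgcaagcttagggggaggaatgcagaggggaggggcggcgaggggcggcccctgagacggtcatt

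The same word GAAGTTTC stood 120 bases before one of the 2 start sites of Hspb6 and 2 bases after that of Hspb8. It was singled out because these windows share it, and it occurs in 0.633% of all windows, counted on the window's own strand only. The share of windows with any match of the pair pattern is the 15.1% given above. The other Hspb6 window and the Hspb11 window held no match. A match is a description of these letters and says nothing about binding in these kidneys.

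Cryab was the most abundant of the 5 genes in every kidney. Its mean over the 10 kidneys was 76.6 normalized CPM, against 15.6 for Hspb11, 7.73 for Hspb1, 5.73 for Hspb6 and 2.89 for Hspb8. The libraries capture the 3′ end of transcripts, so counts do not scale with transcript length, but the order was the same per kb of the longest transcript, with 68.6, 10.4, 8.31, 2.90 and 1.59 normalized CPM per kb. Cryab was above Hspb11 in 10 of 10 kidneys on either scale. Of the neighbours further down, Hspb11 was above Hspb1 in 8 of 10 kidneys per kb of the longest transcript and in 4 of 10 per kb of all exons, so those 2 genes are not clearly ordered by length-scaled level. Hspb1 was above Hspb6 in 9 and Hspb6 above Hspb8 in 8 of 10 kidneys per kb of the longest transcript. Without division by length, Hspb11 was above Hspb1 in 9 of 10 kidneys and Hspb6 above Hspb8 in 9. On that scale Hspb1 was above Hspb6 in 6 of 10, so these 2 genes were not clearly ordered there.

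**Figure D1:**
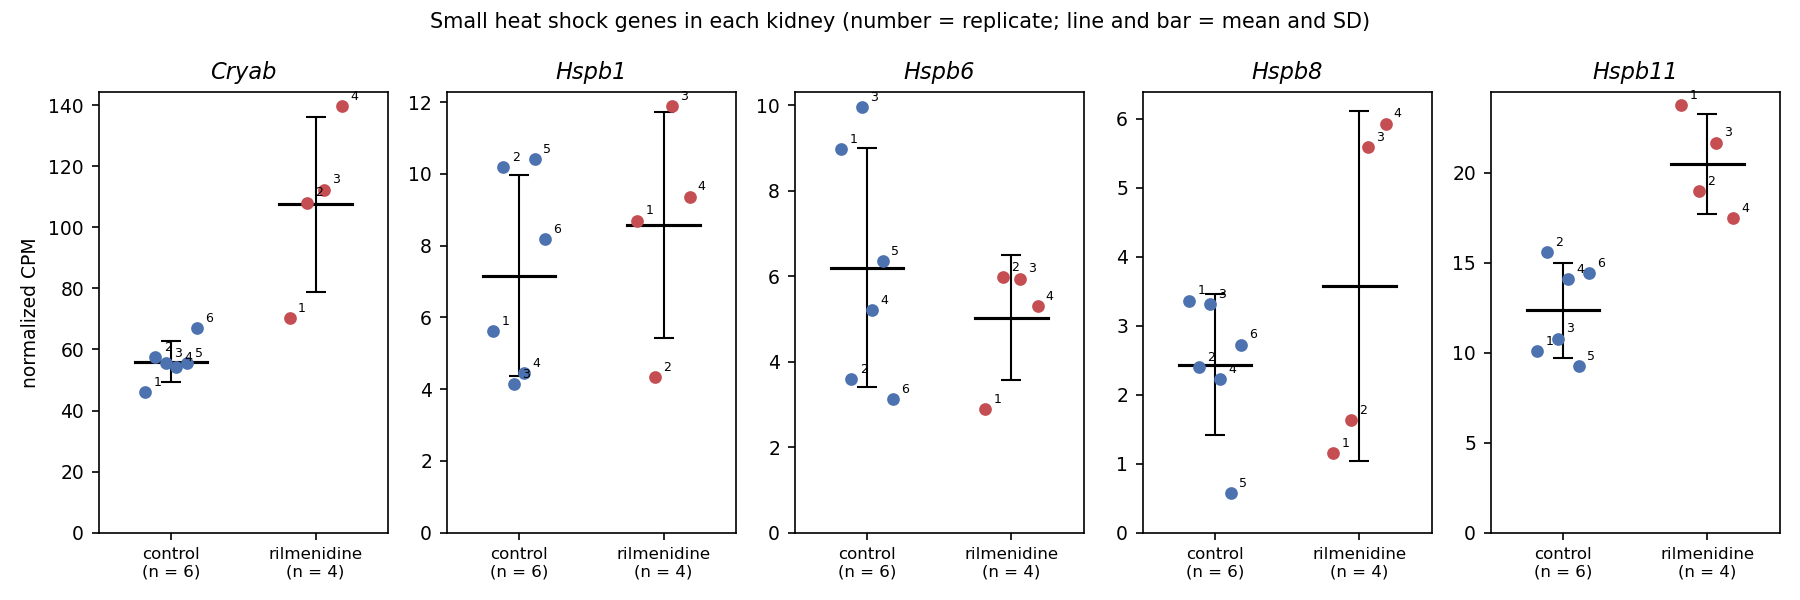
Normalized CPM of the 5 genes in each kidney, by group, with the replicate number beside each point and the group mean and SD as line and bar; each panel has its own axis from 0. For Cryab and Hspb11 the 4 rilmenidine kidneys all lie above the 6 control kidneys, while for Hspb1, Hspb6 and Hspb8 the groups overlap.

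Cryab was at 46.0, 57.5, 55.6, 54.2, 55.5 and 67.1 normalized CPM in controls 1 to 6 and at 70.2, 108, 112 and 140 in rilmenidine kidneys 1 to 4. The lowest rilmenidine kidney was just above the highest control, and the 3 others stood well apart from all controls. The means were 56.0 ± 6.75 (SD, n = 6) and 108 ± 28.6 (SD, n = 4), and the fitted log2 fold change was 0.94 (standard error, SE, 0.17). These values rest on 41 to 172 counts per control library and 121 to 447 per rilmenidine library. The coefficient of variation of the controls was 12.1%, where counting alone gives 10.5% at their mean count and more in the libraries with fewer counts. The genes that followed Cryab in the ranking by which it was chosen were Serpina1d, a serine protease inhibitor with near-identical paralogs whose counts are uncertain, with a log2 fold change of 2.74, and the glutathione transferase Gstm1 with 0.80.

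The level of Cryab moved with library size inside each group. The control with the fewest counts had the lowest level and the control with the most counts had the highest, and the 4 rilmenidine kidneys stood in the order of their totals. At a like depth, control 2 (1787638 counts) was at 57.5 normalized CPM, rilmenidine 1 (1813465) at 70.2 and rilmenidine 2 (1924490) at 108. With a covariate of log2 library size the log2 fold change was 0.62 (SE 0.19) in place of 0.94. With rilmenidine kidneys 1 and 2 alone, whose totals lie within the range of the controls, it was 0.66. With log2 Malat1 as a covariate it was 0.83, and within the 6 kidneys with Malat1 under 1000 CPM, 2 of them controls, it was 0.79.

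**Figure D2:**
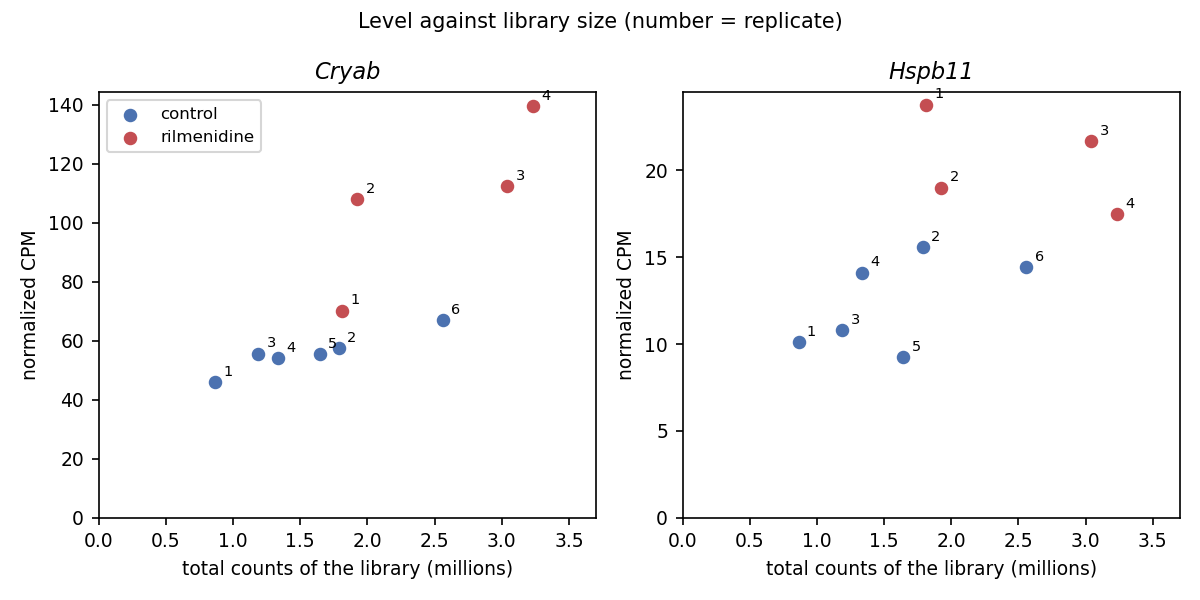
Normalized CPM of Cryab (left) and Hspb11 (right) against the total counts of each library, control kidneys in blue and rilmenidine kidneys in red, with replicate numbers. Cryab increases with the total within both groups and reaches 140 normalized CPM in the largest library, while Hspb11 has its highest value, 23.8, in rilmenidine 1, one of the smaller rilmenidine libraries.

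Hspb11 was at 10.1, 15.6, 10.8, 14.1, 9.25 and 14.4 normalized CPM in controls 1 to 6 and at 23.8, 19.0, 21.7 and 17.5 in rilmenidine kidneys 1 to 4. All 4 rilmenidine kidneys were above all 6 controls, a separation found in 0.796% of the 10055 genes tested, while 0.875% had all 4 below all 6. The means were 12.4 ± 2.64 (SD, n = 6) and 20.5 ± 2.80 (SD, n = 4). The log2 fold change fitted by edgeR was 0.70 (SE 0.21, 95% interval 0.25 to 1.14). In the quasi-likelihood test of edgeR its unadjusted p-value was 0.00436 and its adjusted p-value, by Benjamini-Hochberg over all genes, was 0.279. The test called 0% of the 10055 genes at an adjusted p-value under 0.05, and 4.43% were higher at an unadjusted p-value under 0.05. DESeq2 called 0.597% and the edgeR likelihood ratio test 0.438% of the genes, with Hspb11 in neither set. By p-value Hspb11 was the 154th of all genes.

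The rilmenidine kidneys were not in the order of their totals for Hspb11, since the highest value was in the smallest of these libraries and the lowest in the largest. With a covariate of log2 library size its log2 fold change was 0.62. Controls 2 and 6, which had low Malat1 and were also the largest control libraries, had the highest control values. With log2 Malat1 as a covariate the log2 fold change was 0.43 (SE 0.25) and the unadjusted p-value was 0.0985 by the quasi-likelihood test of edgeR. Over all settings it lay between 0.43 and 0.83, with adjusted p-values of 0.141 to 1.00 from edgeR or DESeq2.

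Hspb1 was at 5.61, 10.2, 4.15, 4.46, 10.4 and 8.19 normalized CPM in the controls and at 8.70, 4.34, 11.9 and 9.37 in the rilmenidine kidneys. Only rilmenidine 3 was above the highest control. The means of 7.17 ± 2.81 (SD, n = 6) and 8.58 ± 3.14 (SD, n = 4) differed by less than either SD. The log2 fold change stood at 0.23 (SE 0.34, adjusted p-value 0.866, quasi-likelihood test of edgeR), with a 95% interval of −0.49 to 0.95. These values rest on 5 to 34 counts per library. The direction turned with log2 library size as a covariate, to −0.24.

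Hspb6 was at 8.98, 3.595, 9.96, 5.20, 6.36 and 3.12 normalized CPM in the controls and at 2.90, 5.97, 5.95 and 5.31 in the rilmenidine kidneys. The rilmenidine values lay within the range of the controls except for rilmenidine 1, which was just below it. The means were 6.20 ± 2.80 (SD, n = 6) and 5.03 ± 1.45 (SD, n = 4). The log2 fold change stood at −0.19 (SE 0.38, adjusted p-value 0.917, quasi-likelihood test of edgeR), with a 95% interval of −0.997 to 0.61. Controls 2 and 6, the low Malat1 controls, were also the lowest controls for Hspb6, and with log2 Malat1 as a covariate the log2 fold change was 0.46.

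Hspb8 had 1 to 7 counts in the control libraries and 2, 3, 16 and 19 in the rilmenidine libraries, and reached 6 counts in 3 of the 10 libraries. It therefore failed the filter on low counts and has no value in the fit across genes. Its normalized CPM were 3.37, 2.40, 3.32, 2.23, 0.578 and 2.73 in the controls and 1.16, 1.63, 5.60 and 5.93 in the rilmenidine kidneys. Rilmenidine kidneys 3 and 4, the largest libraries, were above every control, and rilmenidine kidneys 1 and 2 were below all controls but control 5. A two-sided exact permutation test of the means, 2.44 ± 1.02 (SD, n = 6) and 3.58 ± 2.53 (SD, n = 4), gave p = 0.324, where the smallest p that the 210 splits can give is 0.00952. With the filter lowered to 1 count in any library, its log2 fold change was 0.64 (SE 0.66, adjusted p-value 0.734, quasi-likelihood test of edgeR).

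The remaining genes of the family were hardly seen in these kidneys. Cryaa, the partner of Cryab in the lens, had 26 counts in 7 libraries, 14 of them in rilmenidine 3, and Hspb7, known from heart muscle, had 13 counts in 6 libraries. Hspb3, a muscle gene, had 1 count. Hspb9 and Odf1, genes of the testis, had 0 counts in all 10 libraries, which allows a level of up to 0.155 normalized CPM (3 counts over all libraries, counting error only). None of these genes was tested.

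Gene lists of 4 kinds were set beside the members: genes of the heat shock response, partners of small heat shock proteins, osmotic stress genes and the intraflagellar transport complex that holds Hspb11. None of their genes passed an adjusted p-value of 0.05. Over all genes tested the log2 fold change had a median of 0.00206 and was above 0 in 50.3%.

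Of the heat shock response, 21 of 22 listed genes were tested, 7 were above 0 and 14 below, and the median was −0.17. None was higher and 2 were lower at an unadjusted p-value under 0.05, against 6.13% of all genes that were lower at that level. Hspa1a, an inducible Hsp70 and the standard readout of HSF1 activity, was at 8.98, 20.4, 5.81, 11.9, 19.1 and 16.4 normalized CPM in the controls and at 4.64, 6.52, 5.60 and 7.18 in the rilmenidine kidneys. Control 3 lay within the range of the rilmenidine kidneys and the other controls were above it. Its log2 fold change stood at −1.22 (SE 0.33, adjusted p-value 0.232, quasi-likelihood test of edgeR). Its near-identical neighbour Hspa1b had −0.62, and reads can be divided between these genes. Hsf2, another heat shock factor, had −0.60 (adjusted p-value 0.424, the same test) and Hsf1 −0.22. The highest value was that of Hspe1, the mitochondrial co-chaperonin, at 0.35.

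Of the partners of small heat shock proteins, 7 of 12 were tested, 6 were above 0 and the median was 0.12. Krt18, a keratin of simple epithelia, was at 5.61, 7.79, 12.4, 2.97, 4.63 and 9.75 normalized CPM in the controls and at 16.2, 16.3, 8.75 and 22.2 in the rilmenidine kidneys, with 3 of 4 above all controls. Its log2 fold change stood at 1.11 (SE 0.34, adjusted p-value 0.285, quasi-likelihood test of edgeR). Actb, the cytoskeletal actin, was the lowest at −0.32. Hspa8, the constitutive Hsp70, was at 94.9 and 86.2 normalized CPM in controls 5 and 6 and at 77.1 and 102 in rilmenidine kidneys 1 and 4. In the other kidneys of both groups it was at 2.49 to 13.5. That division within each group leaves its log2 fold change of 0.35 (SE 0.78) without a direction, and its cause was not tested. Bag3, the co-chaperone of Hspb8, failed the filter with 4 to 29 counts.

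The osmotic stress list holds targets of the factor NFAT5 in the salty medulla and Nfat5 itself, and 8 of its 11 genes were tested. Of these, 2 were above 0 and 6, Nfat5 among them, were below, with a median of −0.16. Akr1b3, Slc6a12 and Slc14a2 were not among the genes tested, so the median does not cover them. Aqp2, the water channel of the collecting duct, was higher in all 4 rilmenidine kidneys than in any control, as 0.796% of all genes were, at 68.3 ± 10.5 (SD, n = 6) against 102 ± 16.7 (SD, n = 4) normalized CPM and a log2 fold change of 0.58 (adjusted p-value 0.229, quasi-likelihood test of edgeR). Nfat5 itself was the lowest, at −1.08 (adjusted p-value 0.275, the same test). Its levels in controls 2 and 6 were 29.4 and 32.8 normalized CPM, within the rilmenidine range of 27.8 to 39.6, while the other controls were at 75.2 to 110, the same division as for Malat1.

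The intraflagellar transport complex B had 15 of 16 genes tested, 10 above 0 and 5 below, with a median of 0.12 and 1 gene higher at an unadjusted p-value under 0.05, against 4.43% of all genes, so that 1 of 15 is no result about the complex. That gene was Ift27, whose product forms a pair with that of Hspb11. Ift27 was at 6.73, 3.595, 1.66, 2.97, 2.89 and 3.90 normalized CPM in the controls and at 6.38, 5.43, 8.75 and 10.6 in the rilmenidine kidneys. Rilmenidine kidneys 3 and 4 were above all controls, and control 1 was above rilmenidine kidneys 1 and 2. The log2 fold change stood at 1.16 (SE 0.35, adjusted p-value 0.279, quasi-likelihood test of edgeR), from 2 to 10 counts per control library and 10 to 34 per rilmenidine library. Ift80 was the lowest of the complex at −0.35.

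**Figure D3:**
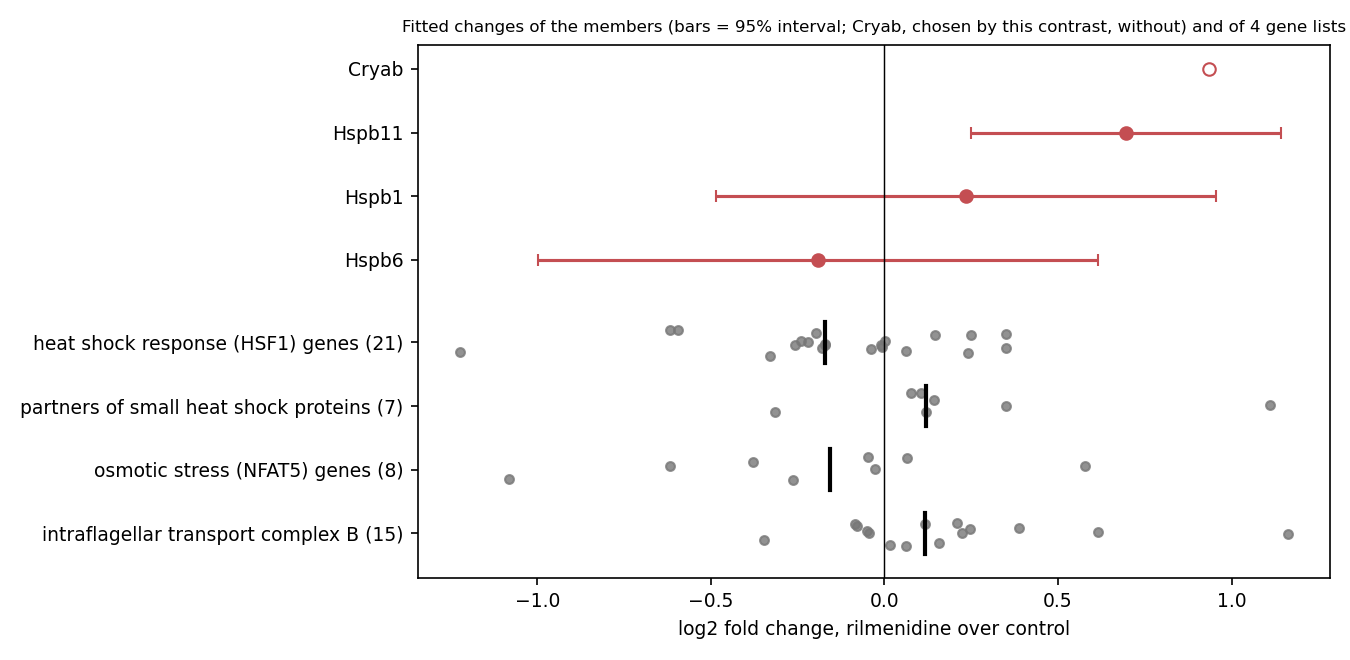
Fitted log2 fold change, rilmenidine over control, of the 4 members that passed the filter, with 95% intervals except for Cryab, which was chosen by this contrast and is an open point, and of every tested gene of the 4 lists as grey points with the list median as a black bar; the number of genes tested is in parentheses. The interval of Hspb11 starts at 0.25, the intervals of Hspb1 and Hspb6 include 0, and the list medians lie between −0.17 and 0.12.

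Cryab is made in some kidney cell types more than in others, and in bulk tissue a change in the number of cells of a type and a change of RNA per cell cannot be told apart. Markers of collecting duct principal cells (8 of 8 detected) summed to between 219 and 326 normalized CPM in controls and to 314, 342, 451 and 416 in rilmenidine kidneys 1 to 4, with 3 above all controls. Aqp4, a water channel on this list, made up 189 and 97.7 normalized CPM of the sums in rilmenidine kidneys 3 and 4. Whether its counts came from these cells alone was not tested. Without Aqp4 the other 7 markers summed to 206 to 312 in controls and to 303, 310.1, 262 and 319 in rilmenidine kidneys. Of these, 1 was above all controls. The highest control was control 6, and the other controls were at 206 to 249, below all 4 rilmenidine kidneys. Thick ascending limb markers (5 of 5) were at 1305 to 1935 and at 1886, 1572, 2381 and 2534, with 2 above, and thin limb markers (5 of 5) at 7.80 to 23.2 and at 20.3, 27.2, 22.7 and 23.7, with 2 above. Urothelium markers (5 of 5, 1 to 66 counts per library) were at 0.830 to 5.78 in controls and at 1.74, 35.8, 9.80 and 19.4 in rilmenidine kidneys. Rilmenidine 1, with the lowest Cryab of its group, was the only rilmenidine kidney within the control range of the urothelium markers. A covariate of the log2 urothelium level, added once the data had been seen, gave a log2 fold change of 0.70 for Cryab and 0.83 for Hspb11.

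Aqp4 and Cyp7b1, singled out after their values were seen, differed widely among the rilmenidine kidneys. Of the 7 tested principal cell markers, 6 had a log2 fold change above 0, among them Aqp2 (0.58) and Aqp3 (0.34). Scnn1b was the 1 below, at −0.34. Of the 5 late proximal tubule markers, 3 were above 0, Cyp7b1, Bcat1 (1.90) and Slc22a13 (0.99). The 2 others were below, with Atp11a lowest at −0.42. Aqp4 was at 12.7 to 27.4 normalized CPM in controls and at 11.02, 32.04, 189 and 97.7 in rilmenidine kidneys, and Cyp7b1, an oxysterol hydroxylase of the late proximal tubule, at 16.8 to 80.5 and at 9.86, 51.0, 210 and 141. In both, rilmenidine 1 was below every control and rilmenidine kidneys 3 and 4 were above every control. The part that the make-up of the pieces of kidney has in the values of Cryab was not tested.

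Markers of muscle, where Cryab and Hspb6 are known to be abundant, were near 0 for striated but not for smooth muscle. Of the 5 striated muscle markers Acta1, Ckm and Mb had 0 counts in every library, and the list had 3 counts in all. Smooth muscle markers (7 of 7) were at 187 to 290 normalized CPM in controls and at 179, 146, 239 and 161 in rilmenidine kidneys 1 to 4, of which 3 were below every control. Their part in the values of Hspb6 was not tested. Markers of proximal tubule S1 and S2 (6 of 6) were at 7904 to 9847 and 7538 to 9123, of S3 (5 of 5) at 1765 to 3466 and 1335 to 3199, of podocytes (5 of 5) at 63.1 to 109 and 66.2 to 101, and of endothelium (6 of 6) at 154 to 288 and 239 to 271. Adipose (5 of 5), immune (5 of 5), blood (5 of 5) and liver (5 of 5) markers overlapped between the groups as well, with only 1 rilmenidine kidney above the controls, for adipose tissue.

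**Figure D4:**
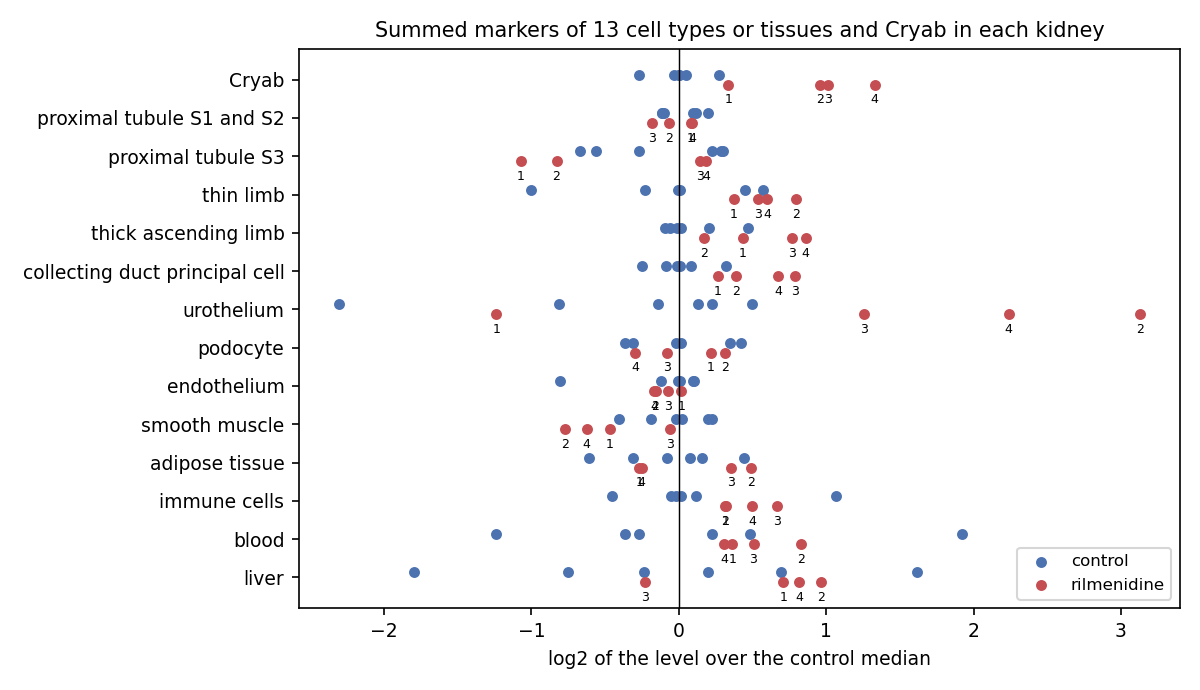
Summed normalized CPM of the markers of 13 cell types or tissues, and of Cryab, in each kidney, as log2 of the level over the control median; control kidneys are blue and rilmenidine kidneys red with their replicate numbers. The urothelium list has the widest spread, with rilmenidine kidneys 2, 3 and 4 above all controls. The collecting duct list has 3 above, or 1 when Aqp4 is left out, where control 6 is the highest control.

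Within the groups, the genes most like Cryab were ranked by the Pearson correlation of log2 normalized CPM after subtraction of each group's mean, over 10 kidneys that share the order of depth given above. They were Mapkapk2 (r = 0.94), Ndrg1 (0.93), Alg9 (0.91), Ears2 (0.91) and Mfhas1 (0.89). These genes were picked as the highest of the 10055 genes tested, so their values of r are a description. Alg9 rests on 4 to 28 counts per library and Ears2 on 4 to 29. Mapkapk2 encodes a stress-activated kinase and Alg9 a mannosyltransferase whose gene starts 18383 bases beyond the end of Cryab on chromosome 9. The group means of these 5 genes were in ratios of 0.705 to 1.00, rilmenidine over control. Mapkapk2 was at 70.8 ± 7.69 (SD, n = 6) and 64.6 ± 16.4 (SD, n = 4) normalized CPM, and Ndrg1, a gene of the hypoxia response, was at 2154 ± 180 (SD, n = 6) and 1518 ± 351 (SD, n = 4). By the same measure Hspb1 was at 0.18, Hspb6 at 0.04 and Hspb11 at −0.12, weak values that in genes of few counts are no finding.

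**Figure D5:**
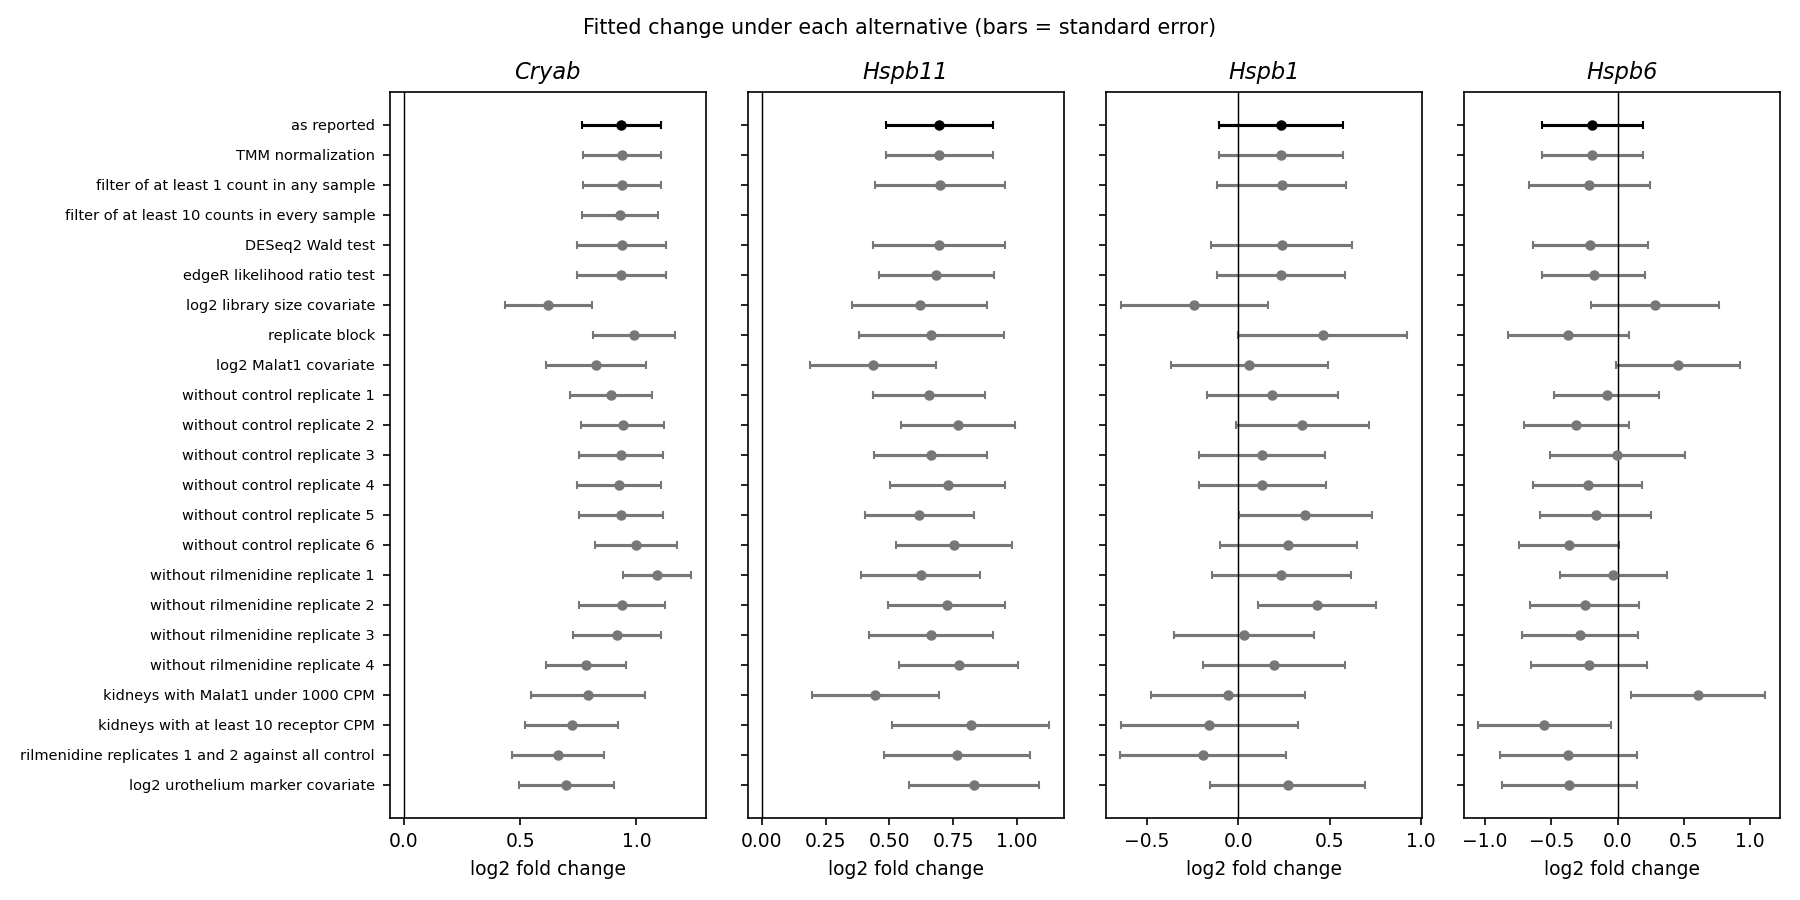
Fitted log2 fold change of Cryab, Hspb11, Hspb1 and Hspb6 as reported (black) and under each alternative setting (grey), with standard errors; a gap marks a setting in which the gene could not be fitted. Cryab, which was chosen by this contrast, lies between 0.62 and 1.09 and Hspb11 between 0.43 and 0.83, while Hspb1 and Hspb6 cross 0.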

How the data were processed

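The kidney libraries were made by a 3′-end protocol and sequenced with 100 bp reads. Per the labels, the authors processed reads with bcl2fastq 1.8.4, Trimmomatic 0.32, STAR 2.5.2b and featureCounts 1.5 on mm10 and deposited raw counts per Ensembl gene for 6 control and 4 rilmenidine kidneys. Annotation release, strand setting and handling of molecular identifiers are not given in the sources used here, and uncollapsed duplicates would inflate counts.

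Symbols were matched for 42462 of 43629 identifiers by a gene name table. The 10055 genes that reached 6 reads in 66.6% or more of the libraries were scaled by RLE and tested with edgeR 4.0.16 (R 4.3.3; quasi-likelihood test, no covariates), with Benjamini-Hochberg adjustment over all of them. Standard errors and 95% intervals come from that fit. Groups and replicate numbers come from the labels, which do not say that each library is another animal, so p-values measure the spread between these libraries. No pair of libraries agreed within sampling noise (chi-square per degree of freedom at least 3.67). Normalized CPM use RLE-scaled library sizes, with a prior count of 2 where logarithms were taken. Hspb8, planned for the same test, failed the filter and was compared by an exact permutation test, and its log2 ratio of group means uses a prior of 1 CPM. Intervals and floors cover counting and the spread between libraries, not errors of the reads' processing.

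The members, gene lists and tests were chosen with earlier results of these data known. The text names the members, the rest of the family, the highest and lowest gene of each list and those past the threshold. It also names the 2 genes next to Cryab by p-value, its 5 most alike genes, the untested osmotic stress genes, Malat1 and summed markers. Hspa1b, Hspa8, Hsf1, Hsf2, Bag3, Aqp3, Aqp4, Cyp7b1, Bcat1, Slc22a13, Scnn1b and Atp11a were added after their values were seen. Coding sequences are from GENCODE M21 and promoters from RefSeq. The scripts were tested on simulated data. Alternatives were TMM, other filters, DESeq2 1.42.0, the likelihood ratio test, covariates of library size or Malat1, the replicate number as a block, each kidney left out, and subsets by Malat1 or by counts on olfactory and vomeronasal receptor genes. A urothelium covariate and rilmenidine kidneys 1 and 2 alone were added after seeing the data.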

Additional observations from a re-analysis of the deposited data

Results flagged for a closer look

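In 38 groups of kidneys examined, 5 had a sample set far from the rest of its group, where chance flags about 1 in 20 groups. None of them was a value of a small heat shock gene. Endothelium markers summed to 154 normalized CPM in control 3, below the other controls. Immune cell markers summed to 200.1 and blood markers to 8803 normalized CPM in control 2, both above the other controls. Striated muscle markers were at 0.743 normalized CPM in control 4 and 1.09 in rilmenidine 2, with 0 counts in the other kidneys, values that rest on 3 counts in all.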

How the results depend on the processing

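The log2 fold changes of Cryab and Hspb11 were above 0 under every setting in which they were fitted. Cryab was chosen by this contrast in these same kidneys, so its sign and range here are a description and no support. Cryab was 0.62 with log2 library size as a covariate, 0.99 with the replicate block and 0.78 to 1.09 with each kidney left out. Hspb11 was 0.66 with the replicate block (adjusted p-value 0.517) and 0.62 to 0.77 with each kidney left out (adjusted p-values 0.141 to 0.592, edgeR's quasi-likelihood test). Hspb1 turned to −0.24 with library size as a covariate, to −0.056 among kidneys with Malat1 under 1000 CPM, to −0.16 among the 5 control and 2 rilmenidine kidneys with at least 10 CPM on receptor genes and to −0.19 with rilmenidine kidneys 1 and 2 alone, and was 0.03 to 0.43 with each kidney left out and 0.46 with the block. Hspb6 turned to 0.28 with library size, to 0.46 with Malat1 as a covariate and to 0.61 among kidneys with Malat1 under 1000 CPM, and was −0.36 to −0.0026 with each kidney left out and −0.37 with the block. The log2 ratio of the Hspb8 means, 0.41 over all kidneys, was −0.50 among the kidneys with at least 10 CPM on receptor genes, −0.52 with rilmenidine kidneys 1 and 2 alone and 0.14 to 0.65 with each kidney left out. The rilmenidine kidneys with at least 10 CPM on receptor genes were kidneys 1 and 2 as well. That subset and the setting with those kidneys alone therefore differ only by control 6, and are nearly the same comparison. Receptor genes were at 8.99 CPM in control 6 and at 4.27 and 7.43 in rilmenidine kidneys 3 and 4, against 51.7 to 436 in the others. In that subset Cryab was 0.72. The causes were not tested. The median of the osmotic stress genes was 0.07 with Malat1 as a covariate and 0.12 among kidneys with Malat1 under 1000 CPM, and the other list medians kept their sign.

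The number of genes called at an adjusted p-value under 0.05 was 0 (1061 at an unadjusted p-value under 0.05), 241 of 27565 with the filter lowered to 1 count in any library (64 higher and 177 lower), 60 with DESeq2, 44 with the likelihood ratio test, 3 with the replicate block and 0 to 37 with each kidney left out, being 33 without control 2, 37 without control 6 and 6 without rilmenidine 1. Correlations of deviations between kidneys of the same replicate number were 0.076, 0.077, −0.077 and −0.0070 for numbers 1 to 4, so the numbers were not taken as pairs. Hspb1, Hspb6 and Hspb11 could not be fitted with at least 10 counts in every sample, and DESeq2 gave no adjusted p-value for Hspb1 and Hspb6. Low counts limit these genes and Hspb8.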
